A study of Mus musculus with 6 samples.

Results

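The thrombospondins are a family of 5 secreted calcium-binding glycoproteins, encoded in the mouse by Thbs1, Thbs2, Thbs3, Thbs4 and Comp (cartilage oligomeric matrix protein, also called thrombospondin-5). They were taken by symbol from a deposited table of 54100 genes. All 5 had a row of their own, and 4 of them had enough counts to test. The cells were fibro-adipogenic progenitors (FAPs), the connective-tissue progenitors of skeletal muscle, sorted by the surface receptor Pdgfra from the plantaris muscle of C57BL/6 mice at 1000 cells per tube. A sham group and a group with overloaded muscle were compared, with 3 libraries in each. The sources used here give no age or sex, nor how load was raised or for how long. Nothing says that the libraries of a group came from different animals, and p-values then measure only how these 6 libraries scatter, which may be technical in part.

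Thrombospondins are matricellular proteins: they sit in the extracellular matrix and act on cells and on other matrix proteins more than they bear load themselves. Thrombospondin-1 and thrombospondin-2 assemble as trimers and carry the type 1 (properdin-like) repeats through which they bind the receptor CD36 and, for thrombospondin-1, latent TGF-beta. Thrombospondin-3, thrombospondin-4 and Comp assemble as pentamers and lack those repeats. All share the type 3 repeats and the C-terminal domain that bind calcium and, in thrombospondin-1, the receptor CD47. In muscle and tendon, thrombospondin-4 and Comp are known as proteins of the matrix where muscle joins tendon and of tendon itself.

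The 6 libraries held between 500402 and 1124210 counts, and each overloaded library was deeper than each sham library. Levels are given as CPM (counts scaled to 1000000 in the tested genes, after TMM normalisation), which allows for depth. Of the 7207 genes tested, 29.3% passed an adjusted p of 0.05 in edgeR's quasi-likelihood test, 15.0% as higher and 14.3% as lower in overloaded FAPs. For 41.5% of the tested genes no sham library overlapped the overloaded range. Among the FAP markers, all 10 were present in both groups, Pdgfra at 857 ± 143 and 594 ± 172 CPM (SD, n = 3 in each group), while 7 of the 10 fell and the others, Pdgfra among them, were not called. Olfactory and vomeronasal receptor genes, not known to be active in FAPs, took 781 to 1819 CPM of the library totals in the sham group and 232 to 1092 CPM in the overloaded group, and this share of background reads was tried as a covariate.

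Overload went with more thrombospondin RNA in FAPs, by amounts that differed widely between the genes. Thbs4 rose about 39.5-fold, Thbs1 4.59-fold and Thbs2 2.08-fold in mean CPM, while Thbs3 did not pass the test and Comp was too sparse to test. Counts of the 5 genes together came to 886, 998 and 1113 CPM in the sham libraries and to 7736, 7559 and 7903 CPM in the overloaded ones. With 3 of the 4 tested members called higher, the family can be set beside 15.0% of all tested genes; the median log2 fold change was 1.64 over the 4 members and -0.02 over all genes tested. In RNA from sorted pools, more cells that express a gene and more RNA per cell cannot be told apart.

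**Figure D1:**
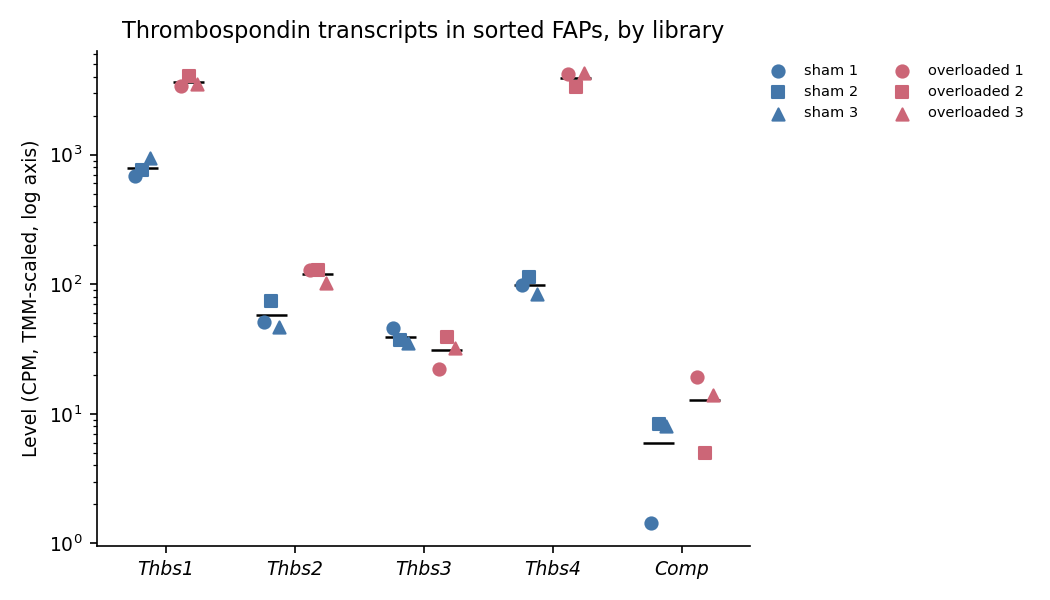
Level of each thrombospondin gene in CPM on a log axis, 1 point per library (blue sham, red overloaded, marker shape for the replicate number) with a bar at the mean of 3. The groups are apart for Thbs1, Thbs2 and Thbs4 and overlap for Thbs3 and Comp.

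Of the trimeric members, Thbs1 lies on the plus strand of chromosome 2 (118111876 to 118127133, GRCm38) and is the most studied of the family as an inhibitor of blood vessel growth and an activator of latent TGF-beta. Its level was 689, 763 and 938 CPM in sham libraries 1, 2 and 3 and 3401, 4062 and 3499 CPM in the 3 overloaded ones. Every overloaded library was above every sham library, and the lowest overloaded one stood far above the highest sham one. The log2 fold change was 2.2 with a 95% interval of 1.78 to 2.61 (edgeR adjusted p = 1.09e-09 by the Benjamini-Hochberg method), which placed it 109th of the 7207 tested genes from the highest log2 fold change. A non-coding gene on the opposite strand, Gm29233, shares 208 exon bases with it and had 0 counts in all 6 libraries.

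Thbs2, on the minus strand of chromosome 17 (14665500 to 14694235), encodes the paralogue known in the mouse for its part in collagen fibril assembly and in the clearance of matrix proteases. It stood at 51.5, 74.7 and 47.1 CPM in the sham libraries and at 128, 129 and 103 CPM in the overloaded ones. The groups did not overlap, though sham library 2 came closer to the overloaded level than the other two. The log2 fold change was 1.08 with a 95% interval of 0.56 to 1.60 (edgeR adjusted p = 0.00175), smaller than that of Thbs1, and no other annotated gene overlaps its exons.

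Of the pentameric members, Thbs4 (chromosome 13, minus strand, 92751590 to 92794818) encodes thrombospondin-4, which in the mouse is found in the matrix of muscle, tendon and heart and, in heart muscle cells, also binds the stress sensor Atf6 inside the endoplasmic reticulum. The table held 69, 55 and 63 counts for it in the sham libraries and 4331, 2651 and 3678 counts in the overloaded ones, or 98.8, 114 and 84.8 CPM against 4166, 3324 and 4254 CPM. Sham libraries were close to each other, and overloaded library 2, the lowest of its group, was still far above them. The log2 fold change was 5.31 with a 95% interval of 4.82 to 5.80 (edgeR adjusted p = 1.46e-17). It ranked 16th of the tested genes by the size of the rise and 2nd by p-value.

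Thbs3 (chromosome 3, plus strand, 89215180 to 89226837), whose product is known from skeletal development in the mouse, was measured at 45.8, 37.3 and 35.0 CPM in the sham libraries and at 22.1, 38.9 and 32.4 CPM in the overloaded ones. The groups overlapped, and overloaded library 1 was the lowest of the 6. The log2 fold change was -0.35 with a 95% interval of -1.04 to 0.33 (edgeR adjusted p = 0.463), so a rise as large as that of Thbs2 lay outside the interval while no change and a fall of moderate size lay inside it. Its exons share 318 bases with those of Mtx1, a mitochondrial import gene on the opposite strand with 7 to 11 counts per library, and reads from that stretch cannot be assigned to either gene without a stated strand setting.

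Comp (chromosome 8, plus strand, 70373558 to 70382066) encodes the cartilage and tendon member of the family, which binds fibrillar collagens. It was scarce, with 1, 4 and 6 counts in the sham libraries and 20, 4 and 12 in the overloaded ones, and did not reach the minimum for testing. In CPM these were 1.43, 8.30 and 8.07 against 19.2, 5.02 and 13.9. The groups overlapped, since overloaded library 2 was below sham libraries 2 and 3. The 36 overloaded against 11 sham counts gave a ratio of 2.33 in CPM with an exact 95% counting interval of 1.16 to 5.08, which covers counting error only and treats reads as independent molecules. Between libraries the difference did not stand out (exact two-sided permutation p = 0.3, where the smallest possible is 0.1).

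The promoter of Thbs4 is shown because its gene rose the most, with those of Thbs2 and Thbs3 as paralogues that rose less or did not pass the test. RefSeq windows (GRCm38.p6) were matched for these 3 of the 5 members. Each runs 5′ to 3′ on the strand of the gene, from 250 bases before to 50 after the annotated start. Thbs4 is chr13:92794769-92795068 on the minus strand, Thbs2 is chr17:14694213-14694512 on the minus strand and Thbs3 is chr3:89214930-89215229 on the plus strand. Capitals mark CATTCC, the MCAT element that TEAD factors, the DNA-binding partners of YAP and TAZ, are known to bind.
Thbs4: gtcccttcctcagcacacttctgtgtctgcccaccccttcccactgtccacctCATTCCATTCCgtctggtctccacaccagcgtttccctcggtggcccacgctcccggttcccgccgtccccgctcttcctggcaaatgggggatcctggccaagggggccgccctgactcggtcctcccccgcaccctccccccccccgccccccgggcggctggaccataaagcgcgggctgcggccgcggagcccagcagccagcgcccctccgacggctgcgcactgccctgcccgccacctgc
Thbs2: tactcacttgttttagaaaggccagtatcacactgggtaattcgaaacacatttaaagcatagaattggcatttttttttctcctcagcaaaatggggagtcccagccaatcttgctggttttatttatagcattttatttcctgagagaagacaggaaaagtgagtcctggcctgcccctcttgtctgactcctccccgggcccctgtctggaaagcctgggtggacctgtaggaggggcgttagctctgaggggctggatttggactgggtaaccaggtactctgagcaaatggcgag
Thbs3: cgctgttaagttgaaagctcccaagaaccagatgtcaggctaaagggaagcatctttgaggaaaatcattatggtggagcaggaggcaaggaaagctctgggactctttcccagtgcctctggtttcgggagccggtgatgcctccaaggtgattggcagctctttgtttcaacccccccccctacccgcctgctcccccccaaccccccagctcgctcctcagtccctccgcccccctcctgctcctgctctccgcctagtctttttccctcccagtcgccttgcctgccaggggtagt

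The Thbs4 window held CATTCC at 2 places, starting 197 and 192 bases before the start site and sharing 1 base with each other. The windows of Thbs2 and Thbs3 held it on neither strand. Of 32851 RefSeq windows of 300 bases, 14.7% held CATTCC on either strand and 1.36% held it more than once. A further 6 motifs were searched on both strands. The GC box, spelled GGGCGG, was present 3 times in Thbs4, where its matches did not touch the MCAT elements, and once in Thbs3. Of all windows 35.7% hold it and 19.5% hold it more than once. The box spelled CCAAT was present 2 times in Thbs2 and once in Thbs3. It is held by 37.4% of all windows, and more than once by 11.7%. The TATA box, spelled TATAAA, was present once in Thbs2 on the reverse strand, and 13.6% of all windows hold it. The AP-1 site, spelled TGANTCA, was in none of the 3 windows and in 7.81% of all. The SMAD element spelled GTCTAGAC was in none and in 0.213% of all. The CArG box of serum response factor was in none and in 1.63% of all. The Thbs4 window was 72% G and C, against 48.3% for Thbs2, 59% for Thbs3 and 53.8% over all windows.

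Ratios of counts between paralogues within a library do not depend on how libraries are scaled, and so show directly whether members moved by different amounts. The log2 ratio of Thbs4 to Thbs1 counts was -2.79, -2.73 and -3.46 in sham and 0.29, -0.29 and 0.28 in overloaded libraries. All sham libraries held several times more Thbs1 than Thbs4 reads, and the overloaded libraries held about as many of each. The ratio was higher by 3.09 on the log2 scale in overloaded libraries, or 8.51-fold (exact two-sided permutation p = 0.1, the smallest that 3 against 3 libraries can give). The ratio of Thbs4 to Thbs2 was higher by 4.23 and that of Thbs4 to Thbs3 by 5.66 on the log2 scale. For the ratio of Thbs2 to Thbs1 the difference was -1.14, with a sham range of -4.30 to -3.34 and an overloaded range of -5.08 to -4.73. The difference in the ratio of Thbs3 to Thbs1 was -2.57 and in that of Thbs3 to Thbs2 -1.43. The groups were apart for all 6 pairs of tested members, each with the smallest possible permutation p (0.1, and 0.1 after Benjamini-Hochberg adjustment over the 6). For comparison, the groups were apart for 41.5% of single tested genes, and no share over other pairs of genes was taken. In each pair the gene that stands earlier in the order Thbs4, Thbs1, Thbs2, Thbs3 held a larger part of the pair's reads in overloaded than in sham libraries. That order is the order of the log2 fold changes in the same libraries and follows from them. The pairs share genes, so they are not independent results.

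**Figure D2:**
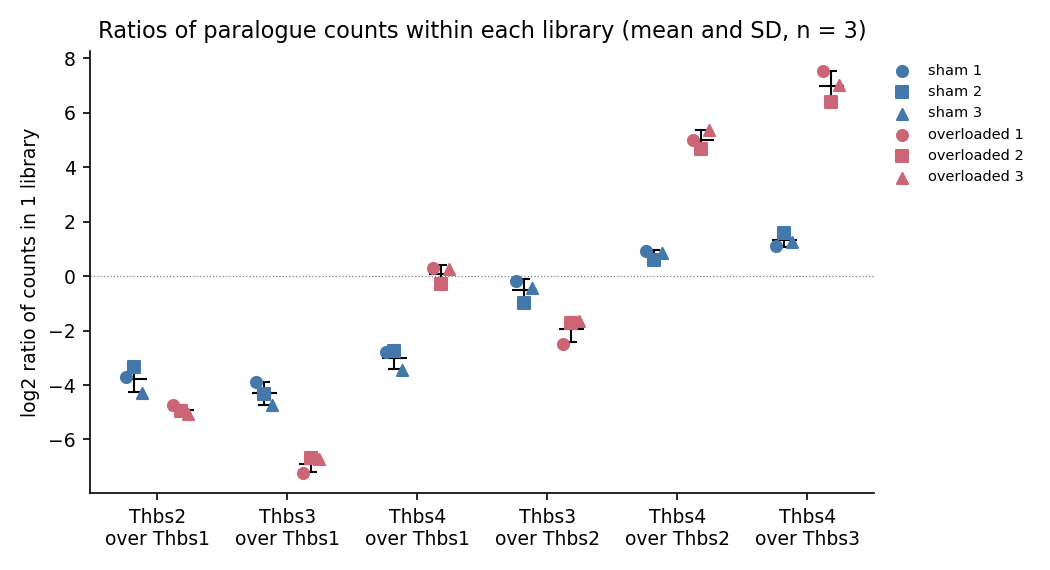
Log2 ratio of the counts of 2 thrombospondin genes in the same library for the 6 pairs of tested members, with points for libraries and bars for the mean and SD of 3. Sham and overloaded libraries do not overlap in any pair, and the Thbs4 to Thbs1 ratio moves from about -2.99 to about 0.10.

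The make-up of the family differed between the groups accordingly. Thbs1 held 76.5% to 84.3% of the family's counts in sham libraries and 44.0% to 53.7% in overloaded ones. Thbs4 went from 7.62% to 11.4% of the counts in sham to 44.0% to 53.8% in overloaded libraries, and was the larger of the pair in overloaded libraries 1 and 3 but not in 2. Per length of exon, Thbs1 stood at 131 ± 21.1 CPM per kilobase in sham, above Thbs4 at 30.2 ± 4.46, Thbs2 at 8.25 ± 2.11, Thbs3 at 8.16 ± 1.18 and Comp at 2.0 ± 1.31. The levels of Thbs2 and Thbs3 on this scale did not differ beyond their spread in sham. In overloaded libraries Thbs4 led at 1190 ± 156 CPM per kilobase, followed by Thbs1 at 602 ± 58.7, Thbs2 at 17.1 ± 2.11, Thbs3 at 6.45 ± 1.75 and Comp at 4.28 ± 2.42 (SD, n = 3), the last pair with overlapping spread. The libraries tag transcripts near their 3′ end, so counts need not grow with length. Dividing by exon length then favours Thbs4, with 3289 exon bases, over Thbs1, with 6073, and the scale without length suits such libraries better. Whether Thbs4 stood above Thbs1 in overloaded libraries depended on the scale. In CPM without length they were at 3915 ± 513 and 3654 ± 357, with overlapping spread. The share of Thbs4 among the family's overloaded reads was 50.6% by counts and 65.2% per length.

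**Figure D3:**
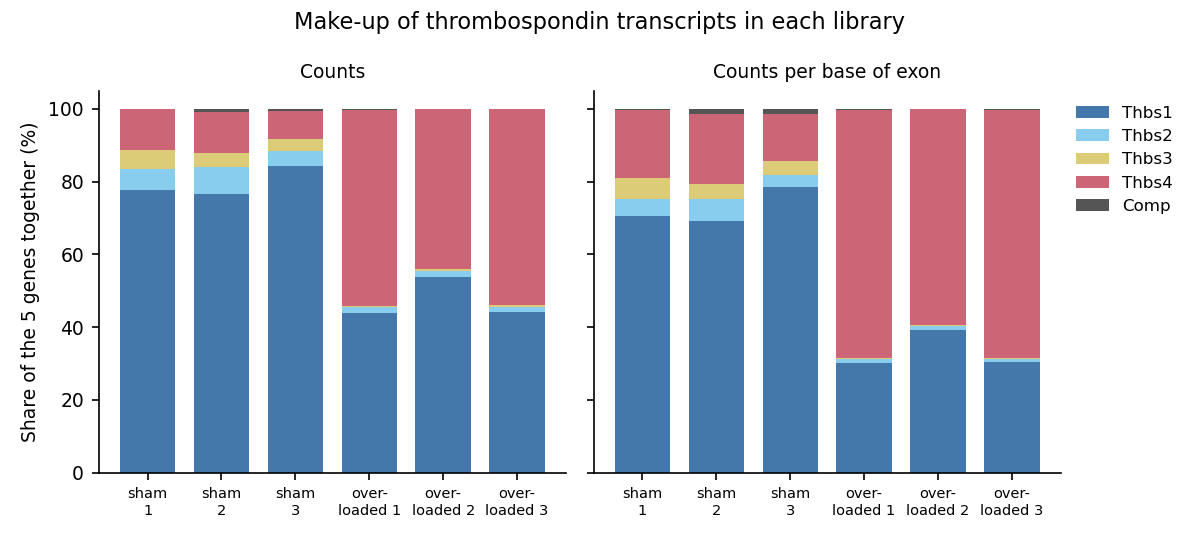
Share of each thrombospondin gene in the counts of the 5 genes, in percent, for each library, by counts (left) and by counts per base of exon (right). Thbs1 makes up most of every sham bar, and Thbs4 takes 44.0% to 53.8% of the counts in the overloaded bars.

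Among 6962 other genes at 10 CPM or more that are not predicted gene models, those with the profile most like Thbs1 across the 6 libraries were Cd44, a hyaluronan receptor, S100a4, a calcium-binding protein of motile fibroblasts, and Acsl4, a fatty acid CoA ligase. Likeness was the root mean square difference of log2 CPM after centring each gene on its own mean, which came to 0.20, 0.20 and 0.22 for these 3. Cd44 stood at 228 ± 21.0 CPM in the sham libraries and 1092 ± 162 CPM in the overloaded ones. For Thbs4 the nearest were F2rl1, the gene for protease-activated receptor 2 (0.29), Cthrc1, a secreted protein of activated fibroblasts (0.35), and Lif, the leukemia inhibitory factor gene (0.57). F2rl1 had 8 counts in the 3 sham libraries together and 675 in the overloaded ones. Cthrc1 had 2 and 364. With so few sham counts, the distances of F2rl1 and Cthrc1 both depend on the prior count of 2 added before the logarithm. For Thbs2 the nearest were Tmem39a (0.07), Ipo7, a nuclear import receptor (0.09), and Nars, the asparaginyl-tRNA synthetase (0.09). Since the groups differ for all of these genes, likeness here is mostly a matter of direction and size of the change.

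Receptors and other surface partners of thrombospondins moved in both directions. Of 15 on the list, 11 had enough counts, 3 rose, 3 fell and 5 were not called, against 15.0% of all tested genes that rose and 14.3% that fell, with a median log2 fold change of -0.11. Without the filter on low counts 1 of the list fell. CD47, the receptor of the thrombospondin-1 C-terminal domain and of Sirpa, was expressed by FAPs themselves, with Cd47 at 825, 604 and 697 CPM in the sham libraries and 498, 507 and 589 CPM in the overloaded ones. The sham libraries were all above the overloaded ones, but the difference did not pass the test (log2 fold change -0.42, SE 0.20, edgeR adjusted p = 0.113), and it was -0.26 without sham replicate 1. Sdc1, the heparan sulfate carrier syndecan-1, rose from 7.31 ± 4.04 to 39.0 ± 8.98 CPM. Calr, the chaperone calreticulin that also serves thrombospondin-1 as a coreceptor, rose from 619 ± 5.41 to 1072 ± 187 CPM. Lrp1, the scavenger receptor that pairs with calreticulin and takes up thrombospondins, fell from 492 ± 42.3 to 305 ± 23.8 CPM, a call that was lost without sham replicate 3 (log2 fold change -0.62, edgeR adjusted p = 0.0575) and without the filter (log2 fold change -0.61, edgeR adjusted p = 0.0757). Sirpa fell from 99.6 ± 6.31 to 53.3 ± 4.92 CPM. Cd36, with 21 sham and 34 overloaded counts, was not tested. With the background covariate 1 of these genes rose and 0 fell by edgeR, with 3 lower at an unadjusted p under 0.05. Of all 7207 tested genes 488 rose and 381 fell with it, against 1084 and 1027 without it. Calr, Sirpa and Lrp1 were among those no longer called, at log2 fold changes of 0.79, -0.80 and -0.71 with the covariate.

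Of 18 genes for matrix and growth-factor partners, 16 were tested, 9 rose, 3 fell and 4 were not called, against 15.0% of all tested genes that rose and 14.3% that fell (median log2 fold change 0.62). The fibrillar collagen genes Col1a1 and Col3a1 rose by 1.42 (SE 0.19) and 1.34 (SE 0.19) on the log2 scale. Dcn, the gene for decorin, fell by 1.31 (SE 0.19). With the background covariate 5 of the list rose and 3 fell, beside 488 higher and 381 lower among all 7207 tested genes.

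The type 1 repeat that thrombospondin-1 and thrombospondin-2 share with other secreted and surface proteins did not mark a common direction. Of 54 other genes that encode such repeats, 23 were tested, 5 rose, 9 fell and 9 were not called, against 15.0% of all tested genes that rose and 14.3% that fell, with a median log2 fold change of -0.65. Cilp, a secreted protein of cartilage and fibroblasts, rose from 364 ± 65.4 to 2822 ± 150 CPM, and Ccn4 and Ccn2, of the CCN matricellular family, by 3.85 (SE 0.31) and 2.62 (SE 0.21) on the log2 scale. Ccn3, of the same family, fell from 220 ± 35.0 to 33.6 ± 8.39 CPM. With the background covariate 5 rose and 4 fell, beside 488 higher and 381 lower among all 7207 tested genes.

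Genes of the Atf6 pathway and of the endoplasmic reticulum chaperones, to which thrombospondin-4 has been linked in the mouse heart, were also listed. Of 18, all tested, 12 rose, 0 fell and 6 were not called by edgeR (0 lower at an unadjusted p under 0.05, and 0 by DESeq2 and limma-voom). Of all tested genes 15.0% rose and 14.3% fell. The median log2 fold change of the list was 0.87. Pdia6, a protein disulfide isomerase, rose from 814 ± 97.8 to 2230.2 ± 413 CPM, and Creld2, another target of Atf6, from 70.3 ± 6.08 to 217 ± 31.8 CPM. Canx, the lectin chaperone calnexin, rose by 1.35 (SE 0.20) and the isomerase gene Pdia3 by 1.34 (SE 0.23) on the log2 scale. Atf6 itself was at 59.3 ± 15.2 and 59.0 ± 32.4 CPM and was not called (edgeR adjusted p = 0.952). With the background covariate 8 of the 18 rose, beside 488 of all 7207 tested genes, and Calr was no longer called.

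Of 18 genes for YAP, TAZ, the TEAD factors and their commonly used targets, 12 were tested, 2 rose, 3 fell and 7 were not called, against 15.0% of all tested genes that rose and 14.3% that fell (median log2 fold change -0.38). Besides Ccn2, Tead1 rose, from 113 ± 21.7 to 208 ± 34.9 CPM. F3, the gene for tissue factor, fell by 1.08 (SE 0.25) on the log2 scale and by 0.70 without sham replicate 1. Lats2, a kinase that restrains YAP, fell by 0.84 (SE 0.28), but was called in 8 of 16 alternatives. The call was lost without any of sham replicates 2 and 3 and overloaded replicates 1 and 3, with edgeR adjusted p-values of 0.0765, 0.0514, 0.111 and 0.0821. It was also lost without the filter on low counts, with thinning to the smallest library, with the block and thinning together, and with the background covariate (edgeR adjusted p = 0.113, 0.0877, 0.108 and 0.470). Yap1 was at 103 ± 13.0 and 68.5 ± 9.61 CPM and Wwtr1, the gene for TAZ, at 169 ± 32.1 and 216 ± 23.3 CPM, neither of them called (edgeR adjusted p = 0.0643 and 0.244). The number that fell was 5 when scaled by library size alone, and 1 without sham replicate 2, without sham replicate 3, without the filter, with thinning, and with the block and thinning. The median was 0.30 without the filter, where all 18 entered. With the background covariate 1 rose and 1 fell, beside 488 higher and 381 lower among all 7207 tested genes. Tead1, F3 and Lats2 were no longer called with it, at log2 fold changes of 0.74, -1.10 and -0.47.

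**Figure D4:**
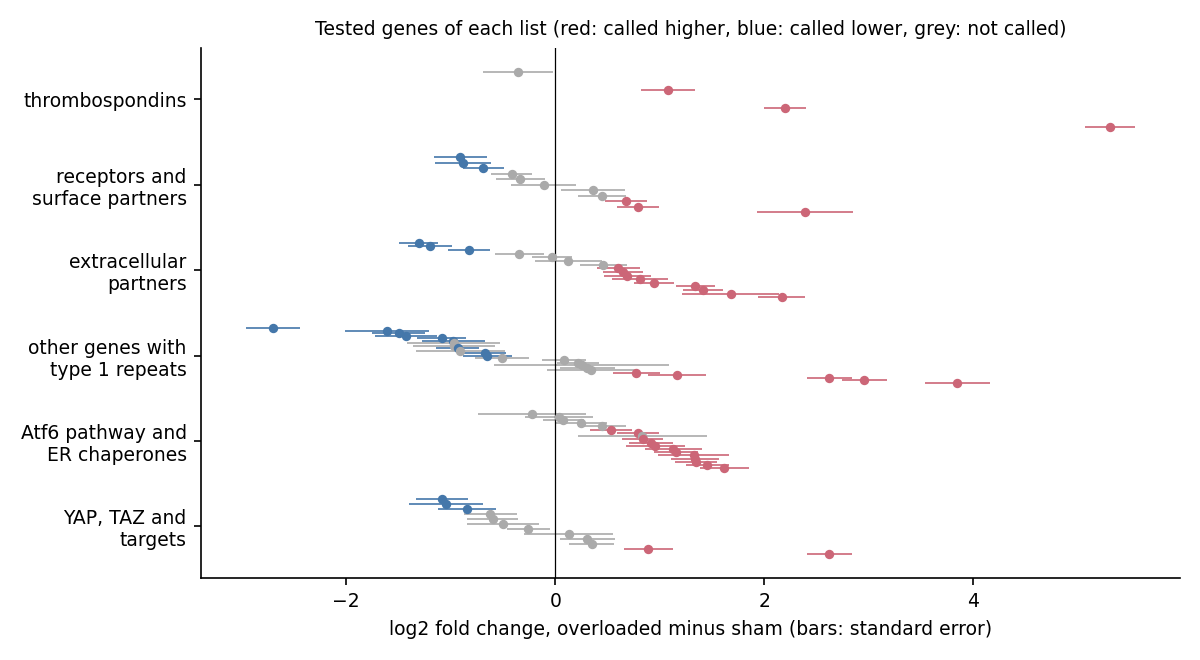
Log2 fold change, overloaded minus sham, of each tested gene in 6 lists, with bars for the standard error. Red and blue points were called higher and lower and grey points were not called, and the point for Thbs4 at 5.31 lies furthest to the right.

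Other cells that make thrombospondins were looked for by their markers. Of the 6 tendon cell markers none was at 0, and their summed level ranged from 85.9 to 99.6 CPM in the sham group and from 57.7 to 178 CPM in the overloaded group (exact permutation p = 1). In overloaded libraries 1, 2 and 3 the tendon sum was 57.7, 81.5 and 178 CPM, beside Thbs4 at 4166, 3324 and 4254 CPM. Scx, the tendon transcription factor, had 2, 1 and 1 counts in the sham libraries and 9, 0 and 12 in the overloaded ones. Within the overloaded group Scx and Comp were both lowest in library 2. Of the other tendon markers, Kera was in CPM also lowest in library 2, while Fmod and Chad were lowest in library 1 and Mkx and Tnmd in library 3. The part of tendon cells in the levels of Thbs4 and Comp was not tested. Platelets store thrombospondin-1, and of their 6 markers Pf4 had 1 count in sham and 0 in overloaded libraries and Ppbp 1 in each group. The sum of the list was 15.8 to 29.0 CPM in the sham group and 26.3 to 60.6 CPM in the overloaded group (exact permutation p = 0.2), most of it Itga2b. Endothelial markers, 6 genes with none at 0, summed to 122 to 216 CPM in the sham group and 33.5 to 71.5 CPM in the overloaded group (exact permutation p = 0.1). Tek, the angiopoietin receptor gene, carried this difference, at 119 ± 11.9 CPM in the sham group and 27.0 ± 4.18 CPM in the overloaded group. The other 5 genes, a sum formed after the values were seen, came to 8.07 to 88.8 CPM and 8.10 to 47.7 CPM, which overlap (exact permutation p = 0.9). The part of endothelial cells in the level of Thbs1 was not tested. Leukocyte markers reached at most 22.8 CPM in a library, with Adgre1 and Lyz2 at 0, and those of muscle stem cells and fibres at most 18.7 CPM, with Myod1 at 0. Pericyte and smooth muscle markers summed to 99.6 to 175 CPM in the sham group and 98.3 to 142 CPM in the overloaded group, with none at 0.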

How the data were processed

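Per the labels' protocols, 1000 sorted cells per tube went into libraries of the CEL-Seq2 type. Per the submitters' processing notes, the reads were handled with featureCounts 2.0.1, HISAT2 2.2.1, Trim Galore 0.6.6 and DESeq2 1.28.1 on GRCm38. The authors deposited raw read counts per gene. The sources used here do not give the strand setting, the handling of reads with several positions or any collapse of molecular identifiers. Genes on the list of members were matched by symbol, and positions and exon lengths came from GENCODE M21, also on GRCm38, which held all 54100 identifiers.

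Overloaded and sham libraries (3 each) entered 1 fit of edgeR 4.0.16 (R 4.3.3): filterByExpr (minimum count 10, minimum total 15), TMM scaling, and the robust quasi-likelihood F test with Benjamini-Hochberg adjustment over 7207 genes. The standard error is the log2 fold change divided by the square root of F, and its 95% interval uses the t distribution. Total counts per library ranged from 500402 to 1124210. Count ratios of paralogues used a pseudocount of 0.5, and marker sums a pseudocount of 1 CPM, with exact permutation over 20 arrangements. The same code was tested on simulated data. Alternatives were other scalings, filters, DESeq2 1.42.0, limma-voom (limma 3.58.1), thinning, the replicate number as a block, the share of olfactory and vomeronasal receptor reads as a covariate, and leaving out each library.

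Genes named were the 5 members, up to 4 called genes per list by adjusted p, Cd47, Yap1 and Wwtr1, and the 3 most similar genes at 10 CPM or more for each called member. Markers were named where their level bears on a member. A gene and a marker list that the rule would name are not reported here. Members and lists were chosen with earlier results of these data known.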

Additional observations from a re-analysis of the deposited data

How the results depend on the processing

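Thbs1, Thbs2 and Thbs4 were called higher in all 16 alternatives each, by edgeR, DESeq2 or limma-voom. Their log2 fold changes ranged from 2.13 to 2.35, from 0.97 to 1.33 and from 5.17 to 5.43, with highest adjusted p-values of 9.10e-07, 0.0193 and 3.12e-12. Thbs3 was called in none of 15 (-0.64 to -0.05, adjusted p 0.275 to 0.963) and was not tested with a minimum count of 30. Comp could be tested without the filter (edgeR adjusted p = 0.380) and in 4 of the fits that left out a library, and was called in none of these 5 (lowest adjusted p = 0.1); its log2 ratio of pooled counts ranged from 0.71 to 1.65 as libraries were left out. The background covariate lowered the counts of genes called from 1084 to 488 higher and from 1027 to 381 lower, and the cause was not tested. Leaving out a library gave 853 to 1073 higher and 742 to 960 lower genes. Of 160 counts for the other lists, 13 moved by more than 1.5 times, 6 of them with that covariate. It also ended the calls of Calr, Sirpa, Lrp1, F3, Tead1, Lats2 and Tmem39a. Yap1 had an edgeR adjusted p of 0.0393 when scaled by library size alone and 0.0468 under a minimum count of 30.

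With the replicate number as a block, 1043 genes were higher and 993 lower, and the calls of Thbs1, Thbs2, Thbs3 and Thbs4 did not change (log2 fold changes 2.2, 1.08, -0.37 and 5.31). Deviations of same-numbered libraries from their group means correlated across genes at 0.008, 0.014 and 0.015 for replicates 1, 2 and 3. Those of libraries with other numbers correlated at -0.025 to 0.011, and 4 of 6 libraries correlated best with their own number. No pairing is stated in the sources used here, so the main fit did not pair libraries, and the block was an alternative. Thinned to the smallest library, the log2 ratio of pooled Comp counts was 0.68 in place of 1.22.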

Other observations

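Some genes of the lists had too few counts to test but sham and overloaded CPM that did not overlap, in either direction, and are examples named after their values were seen. Adamts8, a protease with type 1 repeats known to restrain blood vessel growth, had 0, 0 and 2 counts in the sham libraries and 13, 20 and 30 in the overloaded ones. Unc5c, a netrin receptor with such repeats, had 0 counts in the sham libraries and 4, 8 and 11 in the overloaded ones. Fjx1 and Ptpn14, both used as YAP and TAZ targets, had 7 and 8 counts over the sham group and 33 and 37 over the overloaded group. For Ptpn14 the gap was narrow, from 8.30 CPM in sham library 2 to 8.66 CPM in overloaded library 1. In the other direction, Adamts15, another protease with type 1 repeats, had 3, 5 and 11 counts in the sham libraries and 4, 1 and 2 in the overloaded ones. Nt5e, on the YAP and TAZ list, had 5, 4 and 8 against 4, 1 and 0. Itga4, an integrin gene on the receptor list, had 5, 3 and 2 against 1, 2 and 1. Thsd7b, with type 1 repeats, had 3, 1 and 3 against 1, 1 and 0. In this direction the raw counts of the groups overlapped or met, and they were apart only after scaling to the deeper overloaded libraries. The share of all untested genes with groups apart was not taken. Hyou1, an endoplasmic reticulum chaperone gene, was tested and not called, and stood at 382 CPM in overloaded library 2 against 90.4 and 138 CPM in the other overloaded libraries and 78.8 to 132 CPM in sham.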
